A study of Mus musculus with 12 samples.

Results

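The cells described here are non-cycling keratinocytes of the mouse esophagus that lie just above the basal end of a ranking by basal and suprabasal keratin transcripts. They were chosen on measured values. Counts of each cell barcode were added over the 2 libraries of a mouse, and cells were kept if they had 200 or more detected genes and no more than 20% mitochondrial counts. Cells with 3 or more counts on 8 G2/M genes, 4 or more on 9 S phase genes, or at least 0.4% of counts on 5 superficial genes were removed. The rest were ranked within each mouse by the log2 ratio of Krt4 and Krt13 counts to Krt5, Krt14 and Krt15 counts, each sum plus 1, and divided into 4 equal bins from the lowest ratio (bin 1) to the highest (bin 4). Bin 2 was taken as the cells leaving the basal state, but the cells are a snapshot and no value shows that a cell moves along the ranking. This gave 691 of 2768 ranked cells, out of 4317 cells that passed the gene and mitochondrial limits and 4386 barcodes in all.

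The study profiled epithelium of the esophagus from C57BL/6 mice with inDrop, which seals single cells into droplets with barcoded hydrogel beads. The groups were young mice (at most 4 months) and aged mice (at least 18 months), 3 of each, with 2 libraries per mouse, and no other treatment or allele is given in the labels. The labels do not say if a mouse number stands for 1 animal or several, so p-values measure the spread between these 6 samples. Members numbered 34 (aged mouse 1), 200 (aged mouse 2) and 98 (aged mouse 3), and 145, 94 and 120 for young mice 1 to 3. They carried 92837 to 326944 summed counts per mouse, with medians of 1543 to 2686 counts per cell. Aged mouse 1 gave the fewest cells and the fewest counts. Where fewer cells of a kind and less RNA per cell could give the same sum, these summed profiles cannot tell them apart.

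As background, the esophagus is lined by a stratified squamous epithelium. Basal cells sit on the basement membrane through integrins and collagen XVII, express Krt5, Krt14 and Krt15, and hold the dividing cells. A cell that commits to differentiation stops dividing, lets go of the membrane, switches its keratins to Krt4 and Krt13, strengthens its desmosomes and later builds a cross-linked envelope. Notch signalling, in which a ligand on one cell activates a receptor on its neighbour, promotes this step in squamous epithelia, whereas the transcription factor p63 (Trp63) maintains the basal state.

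The 5 keratins of the ratio chose the members and are given as a description. Krt5 ranged from 6096 to 9436 CPM (a gene's counts in the summed cells of a mouse, scaled to a total of 1000000) in bin 2, against a mean of 8648 in bin 1 and 3769 in bin 3. Krt15 averaged 9278, 7035 and 2604 CPM over bins 1, 2 and 3. Krt4 averaged 1685, 5458 and 24568 CPM and Krt13 1750, 6058 and 14223 CPM over the same bins. Bin 2 therefore still carried most of the Krt5 level of bin 1 and a minor share of the Krt4 level of bin 3, which the ranking itself fixes. Between 98.6% and 100% of the members of a mouse had at least 1 count from each set of keratins, as had 83.0% to 100% of bin 1 and 86.2% to 100% of bin 3 cells, so both sets together do not mark the members.

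The limits of bin 2 differed between mice because each mouse was ranked on its own. The log2 ratio of members ran from -2.17 to -0.58 in aged mouse 1, from -0.95 to 0.87 in aged mouse 2 and from -1.74 to 1.08 in aged mouse 3. In young mice 1, 2 and 3 it ran from -1.85 to 1.22, from -2.46 to -0.14 and from -1.68 to 1.57. The nearest cells outside followed directly, the widest step being that of young mouse 2 from -0.14 to a ratio of 0, so no gap sets the members apart. The median ratio of the members was -1.58, -0.26 and -0.86 (aged) and -0.53, -1.62 and -0.70 (young), with overlap of the groups. It was below 0 in all 6 mice, and in aged mouse 1 and young mouse 2 every member had a ratio below 0, so that there the ranking reached 0 in bin 3. Of 670 cells placed in bin 2 by the replicate 1 library of a mouse, 73.9% were placed there again by the replicate 2 library, 26.1% moved to a neighbouring bin and none of them reached bin 4.

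**Figure D1:**
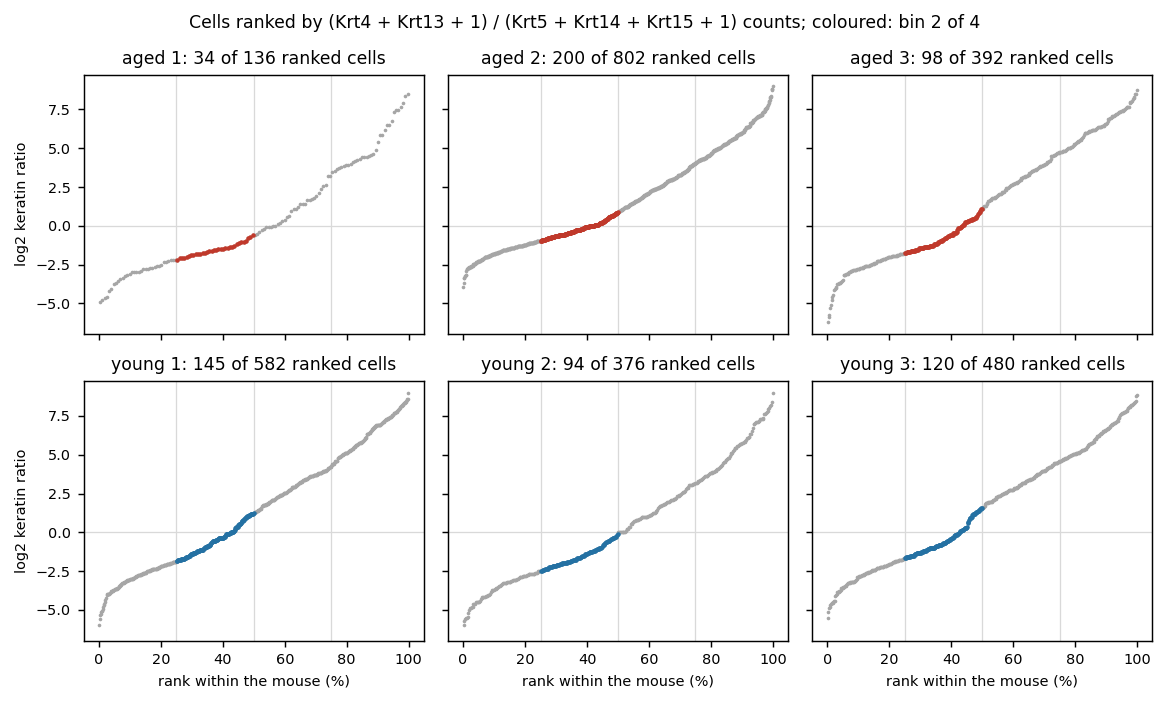
Log2 keratin ratio (vertical axis) of each ranked cell against its rank within its mouse in percent (horizontal axis), 1 panel per mouse; bin 2 is coloured, red for aged and blue for young mice. The ratio climbs without a step through bin 2, and young mouse 2 and aged mouse 1 reach its upper limit below a ratio of 0.

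Several facts about the libraries bear on these cells. Scrublet called 9 of the 691 members doublets, against 15 of 693 cells in bin 3 and 1 in bin 1. Mouse medians of members averaged 1960 ± 400.4 counts per cell (SD, n = 6 mice), against 1941 ± 185 in bin 1 and 2249 ± 404.1 in bin 3. Over pooled cells the medians were 1865, 1821 and 2048 in bins 1, 2 and 3, so the order of bins 1 and 2 was not fixed. Barcodes that differ by 1 base were frequent: 125 members (18.1%, and 43.6% in young mouse 2) had such a partner in their mouse, and 25 members had a barcode also seen in another mouse. Genes that define other cell types were rare, apart from those of fibroblasts. The 3 endothelial markers in the files, Pecam1, Cdh5 and Kdr, were at 0 in the members. Of 6 immune markers Ptprc, Tyrobp and Cd207 were at 0, and the other 3 had 10 counts in all, with sums of 0 to 10.8 CPM (aged) and 0 to 43.0 CPM (young, highest in young mouse 2). Of 4 markers of other epithelia Krt8 and Krt19 were at 0, and the rest had 2 counts, all in aged mouse 3 (10.3 CPM). Of 2 muscle markers Acta1 was at 0, and the list summed to at most 46.2 CPM (aged mouse 3) and 12.1 CPM (young mouse 3). The 6 fibroblast markers summed to 263 to 370 CPM (aged) and 49.1 to 994 CPM (young). In 4 members (2 of them in young mouse 1) there were 5 or more counts of Col1a1, Col1a2 and Col3a1. These 4 cells held 250 of the 254 collagen counts of bin 2, so they go against the label of keratinocytes. The whole fibroblast list had 602 counts in bin 2. Aged mice 1 and 2, without a collagen count there, still summed to 355 and 263 CPM. Counts of the other fibroblast markers (Dcn, Lum and Pdgfra) were thus not confined to these 4 cells. Col1a2 passed as higher than in bin 1, in 3 of 6 mice (2.94 ± 0.79, edgeR adjusted p = 0.0314), and not without young mouse 1, young mouse 3 or aged mouse 3.

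The transcriptome of bin 2, outside the 27 genes of the rule, was compared with bin 1 and bin 3 of the same mice in edgeR with the mouse as a term (6 mice, 5303 genes, adjusted p under 0.05). Against bin 1, 90 genes were higher (1.7% of those tested) and 21 were lower (0.396%). Against bin 3, 439 were higher (8.28%) and 503 were lower (9.49%). Both comparisons share the profiles of bin 2, so their values are given side by side below. No gene passed as above both neighbours (0%) or as below both (0%). Where the keratins were ranked in 1 library of each mouse and the genes were counted in the other, 47 genes were higher and 15 lower than in bin 1. A pair of settings was chosen after seeing the data: with barcodes 1 base apart added together 40 were higher and 7 lower, and without the cells of 5 or more collagen counts 87 and 25. Among 51 genes named or listed that passed against bin 1, 19 of 35 higher genes and 1 of 16 lower genes, Hpgd, passed in every alternative. The number of lower genes depended on single mice. Omitting aged mice 1, 2 and 3 in turn left 29, 13 and 6 lower genes, and omitting young mice 1, 2 and 3 left 3, 13 and 8. Higher genes numbered 45 with young mouse 1 omitted, 42 with young mouse 3 omitted and 72 to 86 with one of the others omitted.

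Over the 778 genes that differed at least 2-fold between bin 1 and bin 3 with an edgeR adjusted p under 0.05, the median gene in bin 2 had covered 29.95% of the distance on the log2 scale (middle 50% of genes, 15.15% to 46.4%), and 613 of the 778 lay below the midpoint. By mouse, the position was 30.3%, 21.4% and 27.6% in the aged and 38.2%, 33.1% and 38.0% in the young mice, from summed distances. The members were thus nearer to bin 1 in all 6 mice. The ranking itself sets the bins in this way. Its median keratin ratio, averaged over mice, was -2.67, -0.92 and 2.31 in bins 1, 2 and 3, also nearer to bin 1. The position is therefore a description and no independent result. Every aged mouse was nearer to bin 1 than every young mouse. This order by age was noticed after the values were seen, and with 3 mice against 3 no exact permutation p can go below 0.1. The groups stayed apart in 16 of 18 other settings, and overlapped where barcodes 1 base apart were added together and where low counts were not filtered. These settings reuse the same mice and are not further evidence for the order.

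**Figure D2:**
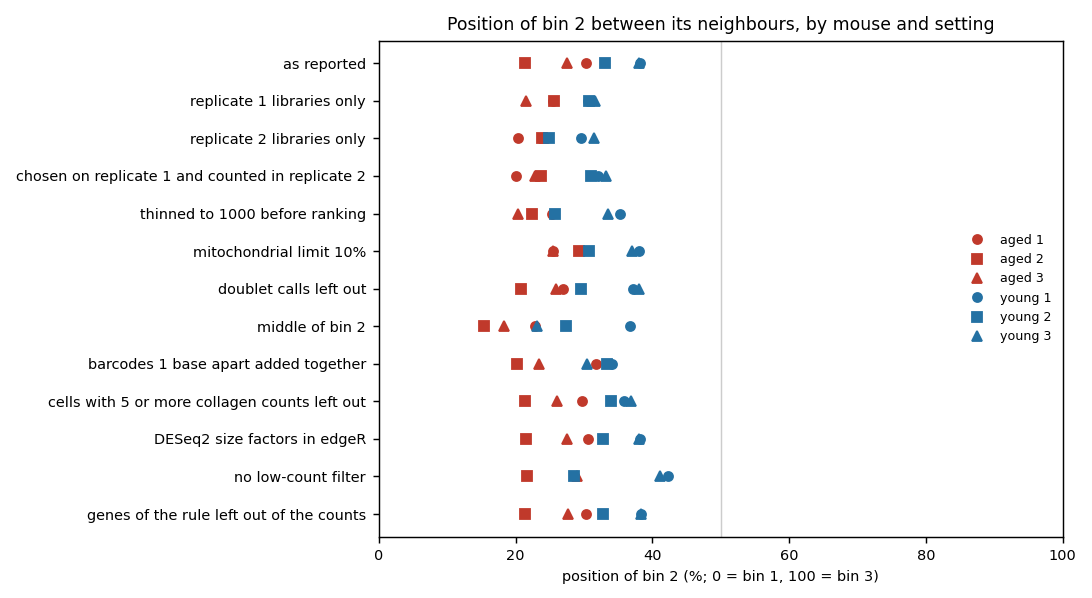
Position of bin 2 between bin 1 (0%) and bin 3 (100%), in percent of the log2 distance, for each mouse (colour and symbol) under each setting that keeps all 6 mice, 1 line per setting. All points lie below the midpoint line, and in the top line, as reported, the 3 aged mice span 21.4% to 30.3% and the 3 young mice 33.1% to 38.2%.

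Genes of attachment to the basement membrane set the members apart from bin 3. Of 12 tested genes of this list none passed the test against bin 1, and 10 were higher than in bin 3 (list medians -0.23 and 1.49 on the log2 scale; all genes tested, 0.01 and 0.02). Of all genes tested, 1.7% were higher and 0.396% lower than in bin 1, and 8.28% were higher than in bin 3. With so few calls against bin 1, a missing call does not show that these genes kept the bin 1 level. Col17a1, the collagen XVII of hemidesmosomes, was at 1066, 1162 and 1145 CPM in the aged and 924, 1087 and 1194 CPM in the young mice. In each mouse this exceeded bin 3, and in 5 of 6 it was below bin 1. The levels averaged 1096 ± 96.6 CPM (SD, n = 6), between 1452 ± 194 in bin 1 and 372 ± 206 in bin 3. The difference from bin 3 was 1.69 ± 0.16 on the log2 scale (fitted value ± SE, edgeR adjusted p = 1.22e-11), and that from bin 1, -0.41 ± 0.14, did not pass (adjusted p = 0.139). Itga6 and Itgb4, the integrin pair of hemidesmosomes, gave the same calls, with adjusted p of 0.863 and 0.295 against bin 1 and 1.46e-08 and 8.76e-10 against bin 3. Lamb3, a chain of laminin 332, stood at 256 ± 89.3 CPM, 2.11 ± 0.22 above bin 3 on the log2 scale (adjusted p = 3.16e-10).

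Differentiation genes lay between the levels of the neighbouring bins. Of 28 tested genes on the suprabasal list 13 were higher than in bin 1 and none lower, while 21 were lower than in bin 3 and none higher (list medians 1.03 and -1.94 on the log2 scale). Over all genes, 1.7% were higher than in bin 1 and 9.49% lower than in bin 3. Mt4, a metallothionein of stratified epithelia, was at 237, 593 and 749 CPM in the aged and 1565, 774 and 1303 CPM in the young mice. All 6 mice had more of it than in their bin 1, whose mean was 140 ± 85.7 CPM, and less than in their bin 3, at 3631 ± 1208 CPM. The fitted differences were 2.46 ± 0.23 and -2.09 ± 0.17 on the log2 scale (adjusted p = 4.1e-11 and 2.98e-13). Calml3, a calmodulin-like protein of epithelia, was at 230 ± 129 CPM, 2.59 ± 0.27 above bin 1 (adjusted p = 5.95e-10). Krtdap, a keratinocyte differentiation-associated peptide, varied widely, from 53.9 CPM in aged mouse 1 to 1215 CPM in young mouse 1, and was above bin 1 in every mouse (2.04 ± 0.32, adjusted p = 1.53e-05).

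Genes of the later envelope gave mixed calls against bin 1. Tgm3, a transglutaminase that cross-links envelope proteins, was at 184 ± 87.7, 590 ± 193 and 2018 ± 641 CPM in bins 1, 2 and 3. The step from bin 1 was 1.63 ± 0.14 on the log2 scale (adjusted p = 7.58e-12). Evpl, which encodes envoplakin, was 0.96 ± 0.18 higher than in bin 1 (adjusted p = 0.000427; 15 of 19 alternatives), and its partner Ppl, at 0.69 ± 0.20, did not pass (adjusted p = 0.059). The transglutaminase Tgm1 was 0.97 ± 0.27 higher (adjusted p = 0.045), in 9 of 19 alternatives, and of the mice only aged mouse 3 could be left out without ending that call. Ly6d and Lypd3, both membrane-anchored proteins of the Ly6 family, and the lipid carrier Fabp5 were among the other genes that were higher than in bin 1 in 6 of 6 mice. Named by size with them were Ces1h, Krt32, Sptssb, Serpinb2 and 2610528A11Rik, whose differences ran from 1.43 to 1.83 on the log2 scale. Serpinb2 passed in 14 of 19 alternatives and not without young mouse 1, while the others passed in all 19.

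Some transcription factors of squamous differentiation were higher than in bin 1. Grhl3 and Zfp750, both regulators of barrier genes, averaged 87.0 ± 66.6 and 72.7 ± 51.4 CPM in the members against 19.3 ± 18.8 and 10.02 ± 15.8 CPM in bin 1. Their differences were 2.31 ± 0.37 and 2.80 ± 0.45 on the log2 scale (adjusted p = 2.32e-05 and 3.39e-05), and both were lower than in bin 3, with 6 of 6 mice in that order. Grhl3 and Zfp750 passed in all 19 alternatives. Grhl1 (adjusted p = 0.045) and Elf3 (adjusted p = 0.0357) also passed, each with 5 of 6 mice in that direction, but in only 8 of 19 alternatives. Neither passed without young mouse 1, young mouse 3 or aged mouse 3, nor Elf3 without young mouse 2. Klf4, a differentiation factor that also had counts in bin 1, was at 932 ± 204 CPM against 730 ± 221 CPM in bin 1 and did not pass (adjusted p = 0.055). Cebpa, Cebpb and Ehf did not pass against bin 1 either, with adjusted p of 0.171 to 0.847. Of 11 tested basal regulators, 1 was lower than in bin 1 and none higher (all genes, 0.396% and 1.7%). That gene was Trp63, at 548 ± 39.5 CPM in the members and 719 ± 115 CPM in bin 1 (-0.42 ± 0.11, adjusted p = 0.032). It passed in 9 of 19 alternatives, and not without aged mouse 3, young mouse 1 or young mouse 3. Sox2 and Klf5 did not pass (adjusted p = 0.126 and 0.124).

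Notch ligands and a Notch receptor differed from bin 1 in opposite directions. Of 14 tested, 1 was higher and 2 were lower than in bin 1 (all genes, 1.7% and 0.396%). The ligand Jag2 was at 259, 401 and 293 CPM in the aged and 200, 289 and 319 CPM in the young mice, lower than in bin 1 of every mouse (mean 454 ± 81.3 CPM) and higher than in every bin 3 (48.1 ± 27.9 CPM). The difference from bin 1 was -0.66 ± 0.17 on the log2 scale (adjusted p = 0.0265), and that from bin 3 passed with adjusted p = 1.15e-12. The first did not pass without aged mouse 3, young mouse 1 or young mouse 3. The ligand Dll1 averaged 76.4 ± 43.9 CPM and was also lower than in bin 1 in 6 of 6 mice (-1.03 ± 0.30, adjusted p = 0.0497), in 6 of 19 alternatives. Leaving out any mouse except aged mouse 1 ended that call. Dlk2, a Delta-like membrane protein, was lower in 5 of 6 mice (-1.06 ± 0.25, adjusted p = 0.0115), in 10 of 19 alternatives, and not without young mouse 1 or young mouse 3. In the opposite direction, the receptor Notch3 was at 21.5, 27.5 and 41.1 CPM in the aged and 91.0, 79.8 and 96.8 CPM in the young mice, and was listed at 0 in bin 1 of 4 mice. It was higher than in bin 1 by 3.60 ± 0.50 (adjusted p = 1.63e-06) and different from bin 3 by -1.36 ± 0.26 on the log2 scale (adjusted p = 7.56e-05), and the first held in all 19 alternatives. Notch1, at 175 ± 45.8 CPM, and the target Hes1, at 286 ± 98.1 CPM, did not pass against bin 1 (adjusted p = 0.109 and 0.138) or against bin 3 (0.607 and 0.556).

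**Figure D3:**
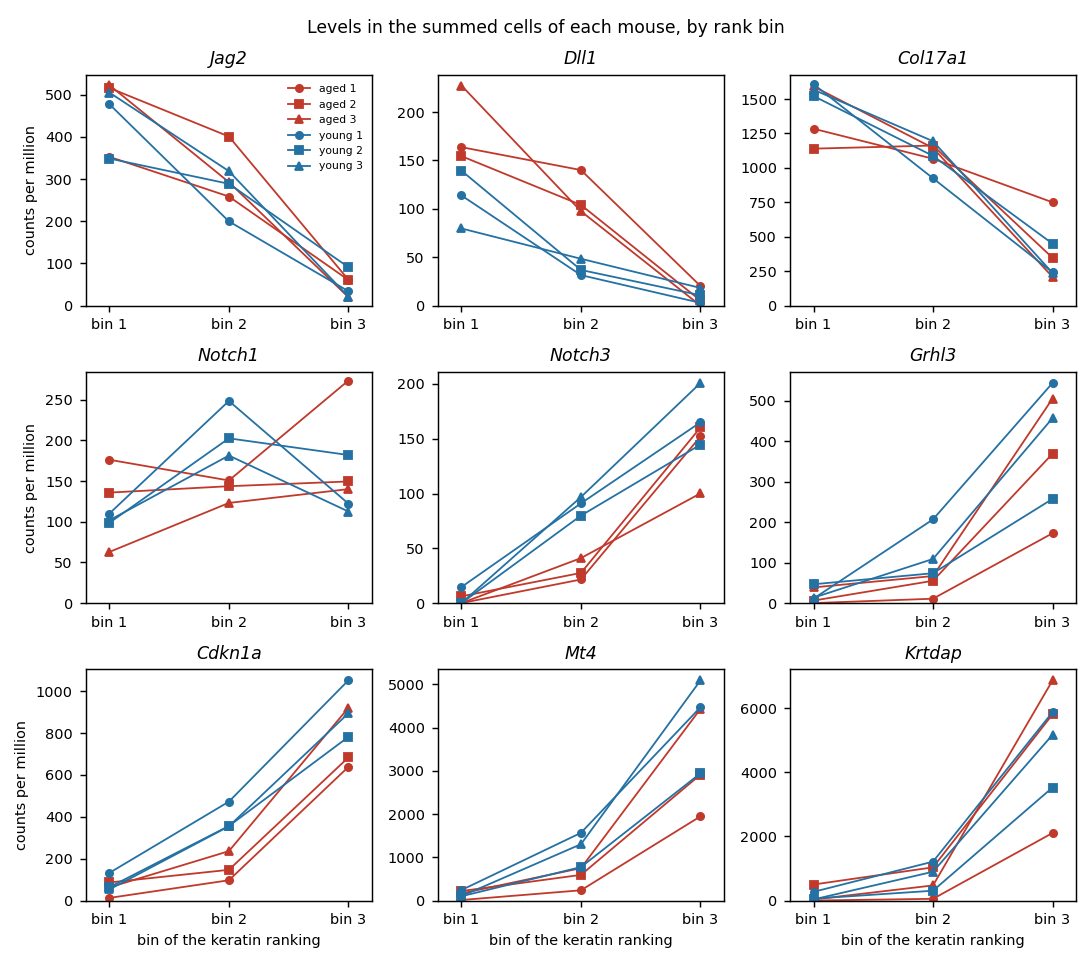
Level (CPM, linear axes from 0) of 9 genes in the summed cells of bins 1, 2 and 3, 1 line per mouse, red for aged and blue for young. Jag2 and Dll1 descend in all 6 mice, Notch3, Grhl3, Cdkn1a, Mt4 and Krtdap climb in all 6, and Notch1 has no common course.

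Of 6 tested genes on the cell cycle exit list, which holds inhibitors and D cyclins, 1 was higher and 1 lower than in bin 1 (all genes, 1.7% and 0.396%). Cdkn1a, which encodes the cyclin-dependent kinase inhibitor p21, was at 96.9, 147 and 236 CPM in the aged and 473, 356 and 355 CPM in the young mice. Each mouse had more than in its bin 1 and less than in its bin 3 (1.88 ± 0.23 and -1.60 ± 0.17 on the log2 scale, adjusted p = 1.05e-07 and 1.71e-10). Ccnd2, which encodes the G1 cyclin D2, was at 891 ± 182 CPM, lower than in bin 1 in 6 of 6 mice (-0.53 ± 0.13, adjusted p = 0.0134) and higher than in bin 3 (1.94 ± 0.15, adjusted p = 4.53e-14). The call of Ccnd2 against bin 1 was lost without aged mouse 3 or young mouse 1. The inhibitor Cdkn1b did not pass in either comparison (adjusted p = 0.905 and 0.818). Cells with cycle counts above the limits had been removed by the rule.

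The other genes that were lower than in bin 1 included secreted and matrix-bound proteins. Smoc2, a calcium-binding matrix protein, was at 195 ± 70.6 CPM against 427 ± 182 CPM (-1.07 ± 0.21, adjusted p = 0.000885). Ccn1, a matrix protein and a well known target of the YAP and TEAD factors, was at 322 ± 226 CPM against 497 ± 278 CPM (-0.70 ± 0.20, adjusted p = 0.045). Hpgd, which inactivates prostaglandins, Gpnmb, Cdh13, Tenm2, Eid1, Hoxc6 and Tmem176a were lower in all 6 mice, with differences of -0.78 to -0.60 on the log2 scale, and -1.04 for Cdh13. Ccn1 passed in 9 of 19 alternatives and was lost without any 1 of the aged mice or without young mouse 1. Of the others, Cdh13 passed in 11, Gpnmb in 14, Eid1 in 9, Tenm2 and Hoxc6 in 7 and Tmem176a in 6, and each was lost without young mouse 1. Of 9 tested genes on the list of YAP and TEAD targets, Ccn1 and Crim1 were lower than in bin 1, and 5 were higher and 1 was lower than in bin 3. Over all genes, 0.396% were lower than in bin 1, and 8.28% were higher and 9.49% lower than in bin 3. Crim1 passed in 9 of 19 alternatives, and leaving out any mouse except aged mouse 1 ended its call.

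Against bin 3, the members were set apart most by Dlk2 (3.58 ± 0.40 on the log2 scale), Igfbp3 (3.07 ± 0.33), Jag2, Snai2, Tns1, Ccn1, Smoc2, Igfbp7, Wfdc2, Efemp1, Lamb3 and 4930523C07Rik, all higher in 6 of 6 mice. Igfbp3 and Igfbp7 bind insulin-like growth factors, and neither passed against bin 1 (adjusted p = 0.752 and 0.536). Snai2, a repressor that holds back keratinocyte differentiation, was at 154 ± 86.4 CPM in the members and 259 ± 52.8 CPM in bin 1 (-0.94 ± 0.23, adjusted p = 0.0156), a call lost without young mouse 1 or young mouse 3. In the opposite direction, Serpinb3a, Sqle, Krtdap, Hsd17b7, Cyp51, Fam25c, Ly6g6e, Psapl1, Serpinb12, Aacs, Spink5 and Ly6g6c were lower in the members in all 6 mice. Sqle, Cyp51 and Hsd17b7 encode enzymes of cholesterol synthesis, and Aacs activates acetoacetate for lipid synthesis. Their levels in the members, 11.3 ± 5.05, 18.7 ± 10.3, 16.0 ± 11.7 and 16.3 ± 15.4 CPM, did not pass against bin 1 (adjusted p from 0.666 to 0.994). In bin 3 the same 4 genes averaged 106 ± 77.2, 138 ± 44.6, 116 ± 57.4 and 106 ± 45.5 CPM.

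Desmosome genes, which encode the junctions that hold suprabasal cells together, were partly raised: 5 of 10 tested were higher than in bin 1 and none lower, and 8 were lower than in bin 3 and 1 higher. Over all genes, 1.7% were higher than in bin 1, and 9.49% were lower and 8.28% higher than in bin 3. Dsc2, a desmocollin, averaged 60.6 ± 21.9, 157 ± 88.5 and 697 ± 416 CPM in bins 1, 2 and 3 (1.32 ± 0.24 for the first step, adjusted p = 0.000285). Dsc3, Jup, Pkp1 and Perp differed from bin 1 by 0.39 to 0.51 on the log2 scale, in 6 of 6 mice each, and passed in 13, 14, 12 and 11 of 19 alternatives; all were lost without young mouse 3. Dsg2 was the member of the list that was higher than in bin 3 (2.81 ± 0.47, adjusted p = 7.53e-06). Among 7 tested retinoid genes, 1 was higher than in bin 1 (all genes, 1.7%), which says little about the list. It was Adh7, an alcohol dehydrogenase that oxidizes retinol, at 2061 ± 411 CPM (0.80 ± 0.09, adjusted p = 8.39e-09). Among 19 tested antioxidant genes 4 were higher and none lower, namely Mt1, Txn1, Gsta4 and Aldh3a1, by 0.38 to 0.60 on the log2 scale, in 18, 14, 11 and 12 of 19 alternatives, and the last 3 did not pass without young mouse 3. Thbd and Cyp2f2, which with Adh7 had marked a group of cells left without a name in an earlier clustering of these data, were both higher than in bin 1 and lower than in bin 3. That list came from these samples and is no independent evidence.

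**Figure D4:**
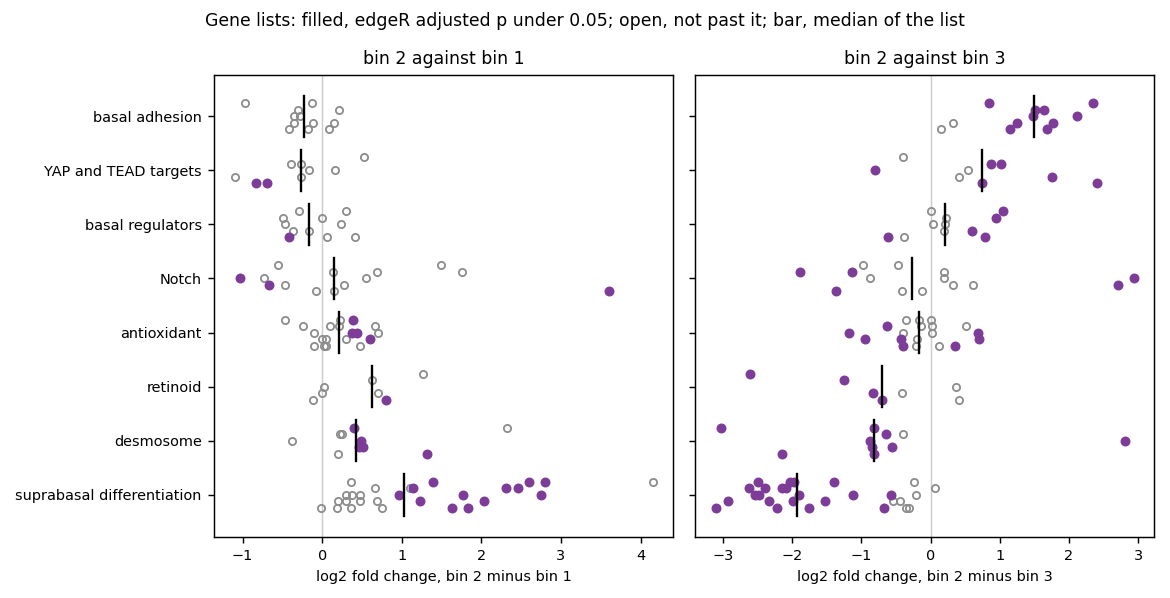
Log2 fold change of each tested gene of 8 lists, bin 2 minus bin 1 (left) and bin 2 minus bin 3 (right); filled points passed edgeR's adjusted p of 0.05 and bars are list medians. Of 28 suprabasal genes 27 lie right of 0 in the left panel (median 1.03) and 1 does in the right panel (-1.94), and the basal adhesion medians are -0.23 and 1.49.

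Within bin 2, the ranking separated some of the same gene groups. Between the lower and the upper ranks of the members, split at the middle, the summed suprabasal list went from 5688 to 10484 CPM, the desmosome list from 4290 to 5200 CPM and the retinoid list from 2125 to 2906 CPM, each higher in 6 of 6 mice. The basal adhesion list went from 7090 to 5786 CPM and was lower in 6 of 6. The cell cycle exit list went from 1868 to 1579 CPM and was higher in none of the mice. It mixes inhibitors such as Cdkn1a with the D cyclins Ccnd1, Ccnd2 and Ccnd3. Its sum therefore gives no direction for the inhibitors. Other lists were not separated in this way: Notch (1487 to 1469 CPM) and antioxidant (21574 to 22642 CPM) were higher in 3 of 6 mice, and the YAP and TEAD list (1346 to 1039 CPM) in 2 of 6. These sums hold no gene of the rule.

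Single cells were compared after thinning each to 1000 counts, which left out 61 shallower members. Mt4 was seen in 37.9% of 630 members, against 9.41% of bin 1 and 88.5% of bin 3 cells (46.7%, 16.0% and 91.3% unthinned, with medians of 1821, 1865 and 2048 counts per cell). The share in members ranged from 9.09% to 56.2% between mice. Notch3 was seen in 3.81% of members, against 0.638% and 12.4%, Grhl3 in 6.19%, against 0.797% and 27.5%, and Zfp750 in 5.397%, against 0.638% and 21.8%. The 3 regulators were therefore detected in few members, and whether the counts in bin 1 are expression or free RNA was not tested. Col17a1 was seen in 56.8% of members, 66.0% of bin 1, 21.04% of bin 3 and 6.84% of superficial cells, which should lack it (median 2216.5 counts per cell). Jag2 was seen in 20.8% of members and 31.4%, 3.92% and 2.28% of the same other cells.

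Basal and suprabasal transcripts were often found in the same thinned cell. Of 630 members, 600 had at least 1 count from the basal adhesion list and at least 1 from the suprabasal list, and none lacked both. Several suprabasal genes also had counts in bin 1, and 93.6% of bin 1 cells had both as well. Whether such counts are expression or free RNA was not tested. Of the 239 members with an Mt4 count, 49.8% had Col17a1 and 12.1% had Jag2, against 61.1% and 26.1% of the 391 members without Mt4. Jag2 was less frequent in the Mt4 cells of all 6 mice, and Col17a1 in those of 5. Mt4 was seen in 57.9% of the 121 members with Cdkn1a and in 33.2% of the other 509, in the same direction in 6 of 6 mice. These shares of pooled cells are a description, since cells of a mouse are not replicates.

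Promoter windows of RefSeq (GRCm38.p6, 250 bases before to 50 after the start) were searched on both strands for 4 short motifs. The TEAD motif GGAATG or CATTCC was present for 4 of the 12 genes with a window among the 21 that were lower than in bin 1 (Ccn1, Crim1, Tmem176a and its neighbour Tmem176b), for 6 of 64 with a window among the 90 that were higher (9.38%), for 13.8% of the 4181 tested genes with a window and for 16.6% of all 27025 genes with a window. The grainyhead-like motif AACNGGTT or AACCNGTT was present for 2 of the 64 higher and none of the 12 lower genes, against 2.22% of tested genes and 2.35% of all. The RBPJ motif TGGGAA or TTCCCA was present for 28.1% of the higher and 25% of the lower genes against 24.9% of tested genes and 28.3% of all, and the AP-1 motif TGANTCA for 10.9% and 16.7% against 6.19% and 8.97%. These counts are a description of letters, and an absent match says only that the letters are not in the window. Ccn1 and Crim1 were already on the list of YAP and TEAD targets, Tmem176a and Tmem176b are neighbours, and the set of lower genes depended on single mice. The TEAD count is therefore no independent result. The 250 bases before the start are shown for a called gene with a match in each direction, on the minus strand and 5′ to 3′, with the motif in capitals: Ccn1, lower than in bin 1 and different by age below (chr3:145649986-145650235, motif at position -103 from the start), and Sfn, a cell cycle inhibitor of the 14-3-3 family that was higher by 0.64 ± 0.13 (adjusted p = 0.00131) (chr4:133602169-133602418, motif at position -184).
Ccn1: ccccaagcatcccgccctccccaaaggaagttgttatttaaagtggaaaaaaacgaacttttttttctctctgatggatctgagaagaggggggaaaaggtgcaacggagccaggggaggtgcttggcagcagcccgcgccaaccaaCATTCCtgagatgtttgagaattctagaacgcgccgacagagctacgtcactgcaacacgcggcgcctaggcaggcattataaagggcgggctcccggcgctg
Sfn: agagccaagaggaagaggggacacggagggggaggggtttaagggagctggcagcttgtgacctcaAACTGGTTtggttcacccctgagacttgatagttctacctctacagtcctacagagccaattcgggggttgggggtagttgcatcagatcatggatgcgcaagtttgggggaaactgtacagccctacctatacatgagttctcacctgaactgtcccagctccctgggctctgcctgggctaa

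The second question was how the members of aged mice differ from those of young mice, tested in edgeR over 3 against 3 mice. Of 4028 genes outside the rule, 3 were higher (0.0745%) and 1 was lower (0.0248%) in aged mice at adjusted p under 0.05. Without adjustment, 282 genes had p under 0.05, and the 9 calls of DESeq2 included 3 of the 4. Ccn1 was at 442, 385 and 688 CPM in the aged and 98.04, 178 and 141 CPM in the young mice, without overlap. The difference was 1.95 ± 0.29 on the log2 scale (adjusted p = 0.00113). Hoxc8, a homeobox gene of positional identity, was at 194, 232 and 267 CPM in the aged and 66.5, 55.3 and 84.7 CPM in the young mice (1.80 ± 0.31, adjusted p = 0.00817). Ptges, which makes prostaglandin E2, was at 96.9, 104 and 77.0 CPM against 7.003, 18.4 and 20.2 CPM (2.69 ± 0.54, adjusted p = 0.0395), from only 2 to 34 counts a mouse. H19, an imprinted non-coding RNA, was at 506, 725 and 636 CPM in the aged and 2087, 2180 and 1674 CPM in the young mice (-1.58 ± 0.22, adjusted p = 0.00101). In each of these genes all aged mice lay on one side of all young mice.

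Of the 4 calls, 3 depended on single mice. H19 passed whichever mouse was left out, while Ccn1 did not pass without young mouse 1. Hoxc8 needed both aged mouse 2 and young mouse 1 to pass, and Ptges needed these and young mouse 3. Apart from mice, Ccn1 was lost in the middle ranks of bin 2, and Hoxc8 at a mitochondrial limit of 10% and with sums thinned to the shallowest mouse. Ptges was lost when cells were chosen in one library and counted in the other and with barcodes 1 base apart added together. Only 15 of 21 alternatives gave Ptges an adjusted p, and it passed in 10 of them. Hoxc8 had an adjusted p in 20 and passed in 16. In the remaining settings these 2 genes were not called either. With aged mouse 3 left out there were 20 calls, with aged mouse 1 left out 16, with young mouse 2 left out 10 and with young mouse 1 left out 1. Without the cells of 5 or more collagen counts there were 9 calls, the earlier 4 among them.

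**Figure D5:**
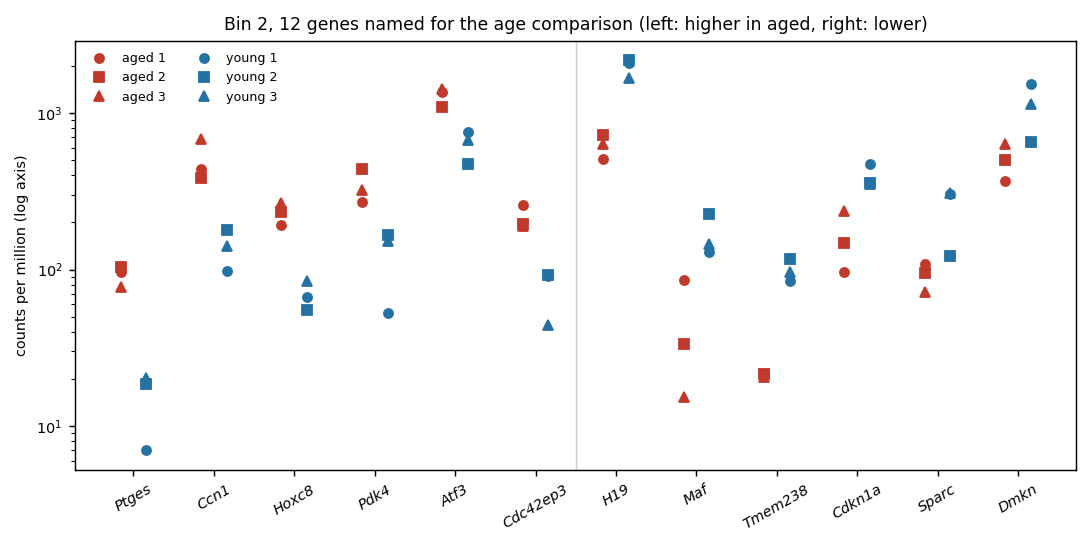
CPM (log axis) in bin 2 of each mouse for the 12 genes named in the age comparison, red for aged and blue for young, with symbols for the mouse number. The groups do not overlap in any of the 12 genes, of which Ptges, Ccn1, Hoxc8 and H19 passed the test.

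By the naming rule 8 further genes had groups without overlap and the lowest p, and none of them passed. Among all genes, 204 had all aged above all young mice (5.06%) and 321 the reverse (7.97%). Higher in aged mice were Pdk4, a kinase that restrains pyruvate oxidation (343 ± 85.8 against 124 ± 62.1 CPM, adjusted p = 0.0505), the stress-induced factor Atf3 (1294 ± 182 against 634 ± 146 CPM, adjusted p = 0.0531) and Cdc42ep3 (adjusted p = 0.0575). Pdk4 passed in 11 and Atf3 in 9 of 21 alternatives. Lower were Maf, a factor of late keratinocyte differentiation (45.1 ± 36.7 against 167 ± 52.5 CPM, adjusted p = 0.0575), Tmem238, Cdkn1a (160 ± 70.5 against 395 ± 67.7 CPM, adjusted p = 0.095), Sparc and Dmkn (499 ± 133 against 1111 ± 446 CPM, adjusted p = 0.12). For Sparc, a matrix protein, the collagen counts lay mostly in young mice 1 and 3, and the part of collagen-bearing cells in its difference was not tested beyond leaving those cells out, where it did not pass either.

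The lists were then read by age, with the count of genes without overlap set against 5.06% and 7.97% for all genes. None of the genes of the differentiation, desmosome, Notch and adhesion lists passed the test. Of 21 suprabasal genes tested, none was higher without overlap in aged mice, those lower without overlap included Maf, Dmkn, Mt4 and Grhl3, and the list median was -0.58 on the log2 scale against 0.00 for all genes. The summed list ranged over 4298 to 8197 CPM (aged) and 6534 to 12248 CPM (young), which overlap. Of 9 desmosome genes tested all had lower fitted values in aged mice, 4 of them without overlap (Dsc2, Dsc3, Perp and Jup), and the list summed to 3479 to 4481 CPM (aged) and 4753 to 6345 CPM (young). Of 9 Notch genes, Notch1, Notch3 and Hes1 were lower and Dll1 was higher in aged mice without overlap. Notch3 averaged 30.04 CPM over the aged and 89.2 CPM over the young mice (-1.46 ± 0.45, adjusted p = 0.337), and Dll1 114 ± 22.9 and 38.9 ± 8.63 CPM (1.55 ± 0.41, adjusted p = 0.171). Of 12 basal adhesion genes Dst was higher (2195 ± 214 against 1437 ± 309 CPM, adjusted p = 0.354) and Itgb1 lower without overlap. Of these 12, 9 had higher fitted values in aged mice. The adhesion list summed to 6729 to 7271 CPM (aged) and 5182 to 6440 CPM (young), without overlap. The Notch list summed to 1249.5 to 1431 CPM (aged) and 1492 to 1698 CPM (young), also without overlap. These sums were not tested.

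Other measures of the same cells are set beside the age comparison. The immediate early genes, which respond within minutes to stress and to handling, summed to 25733 to 33599 CPM in aged members and 17821 to 22981 CPM in young ones. All 12 tested genes of that list had higher fitted values in aged mice, and Atf3, Btg2, Jun and Junb did not overlap. The part of this list, and of the mitochondrial share, in the age differences was not tested. The mitochondrial share of counts was 7.98%, 9.81% and 6.18% in the aged and 5.62%, 6.25% and 5.32% in the young mice. Aged mouse 3 was inside the young range, and the means differed by 2.26 percentage points (7.99% ± 1.81 against 5.73% ± 0.475, SD, n = 3 each, exact two-sided permutation p = 0.2). All 7 tested mitochondrial protein genes had higher fitted values in aged mice, and 3 did not overlap (mt-Nd2, mt-Cytb and mt-Nd4). Median counts per cell differed by 276 (2098 ± 531 in aged, 1822 ± 249 in young, exact two-sided permutation p = 0.5).

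Whether the age difference was particular to bin 2 was tested as an interaction over 5303 genes. No gene passed against bin 1 or against bin 3 in edgeR (205 and 186 genes at an unadjusted p under 0.05), nor in DESeq2. The age difference of H19 was -1.48 in bin 1 and -2.28 in bin 3, that of Ccn1 1.58 and 1.57, and that of Hoxc8 1.73 and 1.59, all on the log2 scale. Age calls numbered 11 of 4033 genes in bin 1, 4 of 4035 in bin 2 and 1 of 4689 in bin 3 when the rule's genes were counted in, and these counts do not show that the bins differ. For Cdkn1a the fitted age difference was -1.19 in bin 2 against -0.34 in bin 1 and -0.23 in bin 3, and the interactions of -0.92 and -0.96 did not pass (adjusted p = 0.997 and 1.00).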

How the data were processed

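Single-cell RNA was measured in 12 inDrop libraries from 6 mice. The authors deposited raw counts in tables of gene symbols by cell barcodes. The submitters' processing notes name UMI-tools 1.0.0, STAR 2.7, featureCounts of Subread 2.0.0, Seurat and the GRCm38 build, with no role or order. The extraction protocol ends by naming Smart-Seq2, though it describes inDrop, which was assumed. Near-identical genes can share counts.

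The 2 libraries of a mouse hold mostly the same barcodes (94.2%), were added per barcode and count as 1 sample. If both were read from the same amplified material, the counting error is larger than it looks. The members, gene lists and tests were chosen with earlier results of these data known. Counts were summed per mouse and bin. edgeR 4.0.16 in R 4.3.3 (quasi-likelihood test, TMM, filterByExpr, Benjamini-Hochberg at 0.05) tested age over 3 against 3 mice, and neighbouring bins and the interaction with the mouse as a term. DESeq2 1.42.0 was the other tool. The SE of a fold was derived from the edgeR test, as the absolute log2 fold divided by the square root of its F statistic. CPM values are unmodelled. Scrublet (scanpy 1.11.5) called doublets per library, and its calls were kept in. The fits were tested on simulated data.

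Named for age is each called gene and, since fewer than 10 passed, the genes without overlap and with the lowest p, up to 6 a direction. Named for the bins are called genes with 6 of 6 mice in 1 direction and at least 100 CPM in the higher bin, the 12 with the largest change each way, plus list members. Genes of the fixed lists that are not named are given as counts, and the results of some single genes are not reported here. Other genes singled out (Sfn, and the genes beside the promoter search) were chosen after their values were seen.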

Additional observations from a re-analysis of the deposited data

Results flagged for a closer look

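For 2 genes the difference between bin 1 and bin 2 had opposite signs in the age groups, with every aged mouse one way and every young mouse the other. For Tmem238, bin 2 minus bin 1 averaged -8.23 CPM (aged) and 48.1 CPM (young). Efemp1, which encodes the matrix protein fibulin-3, averaged 29.7 CPM (aged) and -219 CPM (young) in the same difference. The interaction of age and bin did not pass for either gene (-1.45 ± 0.73 for Tmem238 and 1.10 ± 0.42 for Efemp1 on the log2 scale, edgeR adjusted p = 0.997 for both). No explanation was tested.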

How the results depend on the processing

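The number of genes called by age in bin 2 (4) was 2 with a mitochondrial limit of 10% and with sums thinned to the shallowest mouse, 7 without doublet calls, 1 in the middle of bin 2, 9 without collagen-bearing cells and in DESeq2, and 33 with no low-count filter. Leaving out 1 mouse gave 1 to 20. A replicate block on the mouse number gave 10. Same-numbered aged and young mice did not deviate together (r = -0.208, -0.052 and -0.145 over 2188 genes), and differently numbered ones had r of -0.050 to 0.173. With so few mice these values cannot tell if same-numbered mice were handled as pairs, and the labels do not say. Genes higher than in bin 1 (90) numbered 56 and 45 in the replicate 1 and replicate 2 libraries alone, 47 when chosen in one and counted in the other, 36 in the middle of bin 2 and 40 with barcodes 1 base apart added together. Genes lower than in bin 1 (21) numbered 10 and 13 in the single libraries, 10 when cells were thinned to 1000 counts before ranking, and 7 both in the middle of bin 2 and with barcodes added together. Leaving out 1 mouse gave 42 to 86 and 3 to 29 of these, with the fewest higher genes without young mouse 3 (42) or young mouse 1 (45) and the fewest lower genes without young mouse 1 (3) or aged mouse 3 (6). The settings with collagen-bearing cells left out and with barcodes added together were chosen after seeing the data.

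Counts against bin 3 stayed within 1.5 times of 439 and 503. Above both neighbours there were 0 to 1 genes with 1 mouse left out, and below both 1 gene in the middle of bin 2 and with barcodes added together. The position was 22.7% in the middle of bin 2. Without a low-count filter the interaction called 3 genes against bin 1 and 5 against bin 3. The difference in median counts per cell was -18 to 498 with 1 mouse left out, and it turned negative (-18) without aged mouse 1. Of the genes refitted in the alternatives no fold reversed; against bin 1, 733 single values kept their side of the threshold and 231 lost it, and against bin 3, where the 12 largest changes each way were refitted and no other gene, 456 of 456 kept it. The causes of these changes were not tested. Depth limits genes under about 100 CPM, which rest on few counts in aged mouse 1.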
